A study of Homo sapiens with 24 samples.

Results

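MicroRNA precursors are the hairpin transcripts from which mature miRNAs are cut. Their levels were compared between A2780 cells kept for 6 days in normoxia (libraries 9 and 10) and A2780 cells kept for 6 hr (libraries 1 and 2) or 48 hr (libraries 5 and 6) in normoxia. A precursor was included where it reached at least 1 RPKM (reads per kilobase of the precursor and per 1000000 library reads, as deposited by the authors) in at least 2 of the 12 libraries of the study, which held for 166 of 939 precursors. The other 773 were not tested, and 477 precursors were at 0 in all 12 libraries. The precursor just inside this minimum, mir-579, had a second-highest value of 1.00 RPKM, and the one just outside, mir-590, had 0.994 RPKM. Of the 166, 10 passed only because of the 6 day normoxia libraries and 12 only because of the early normoxia libraries, with mir-29a counted under both. None of these was called in the main comparison below. However, mir-198, included only because of the 6 day libraries, was called against the 48 hr libraries alone.

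A2780 is an established human cell line, labelled as epithelial ovarian cancer. It was grown in RPMI medium with fetal bovine serum, in hypoxia (1% oxygen, in a chamber) or in normoxia, for 6 hr, 48 hr or 6 days, with 2 libraries in each of the 6 groups. Total RNA was depleted of ribosomal RNA and read on a SOLiD 5500xl. The labels name no genetic change and no drug in any group, and leave unsaid whether each library had its own culture, so the p-values reflect how far these libraries scatter, which may be technical scatter.

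The late group was thus a longer time in culture, and the labels give no cell density, passage or medium change that would separate it from time itself. Reads inferred from the RPKM steps put the library totals at 29.8 and 30.3 M reads (M for 1000000) in the 6 day normoxia libraries, against 26.1 to 51.8 M in the 4 early ones. Most precursors were thinly covered: 122 and 117 of 159 had fewer than 10 reads in the 6 day libraries, against 97 to 124 in the early libraries. The entry mir-1975 took 74.8 to 85.4% of the summed precursor RPKM of a library. Without mir-1975, mir-1826 and mir-663, the sum was 599 and 634 RPKM at 6 days, against 731, 660, 764 and 514 RPKM in the early libraries. In the gene table EPCAM, an epithelial surface protein, was at 33.2 to 38.2 RPKM at 6 days and 39.7 to 40.8 RPKM early, and the mesenchymal filament gene VIM at 746 to 768 and 712 to 835 RPKM. The epithelial or ovarian markers CDH1, KRT7, KRT19, PAX8, WT1 and MUC16 were at most 0.0673 RPKM at 6 days and 0.0832 RPKM early, so among the markers examined the label rests on EPCAM and the keratin KRT18 (25.3 to 27.2 RPKM at 6 days, 31.1 to 34.2 RPKM early), while KRT8 was at 0.655 to 0.864 RPKM at 6 days and 0.615 to 1.34 RPKM early. The 8 leukocyte, endothelial and erythroid markers summed to 0.694 to 0.859 RPKM at 6 days and 0.546 to 0.766 RPKM early, with CD3E at 0 in all 6. The mesenchymal marker ACTA2, a smooth muscle actin, was at 3.42 to 4.27 RPKM at 6 days and 12.7 to 16.8 RPKM early, while DCN, a matrix proteoglycan of fibroblasts, went the other way, at 17.2 to 18.3 RPKM at 6 days and 11 to 15.1 RPKM early, and LUM, another one, was at 7.83 to 8.57 RPKM at 6 days and 6.01 to 9.62 RPKM early. COL1A1 and COL1A2 were at most 0.658 RPKM at 6 days and 0.562 RPKM early. The part of these markers in the precursor results was not tested.

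A miRNA gene is first copied into a long primary transcript. The nuclear complex of Drosha and DGCR8 cuts the hairpin out of it, exportin-5 carries the hairpin to the cytoplasm, Dicer removes the loop, and 1 strand is loaded into an Argonaute protein. Many hairpins lie in introns of protein-coding genes and some within exons, where the hairpin's sequence is also part of the host mRNA. A mature miRNA finds its targets mainly through the seed, bases 2 to 8 from its 5′ end. The libraries were made from total RNA, so a precursor's RPKM counts RNA that covers the hairpin and does not separate the primary transcript, the hairpin, the mature miRNA or a host mRNA. A lower RPKM is a lower share of the library, and fewer copies per cell cannot be told apart from a change in the rest of the RNA or in the make-up of the culture.

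The mature miRNAs of the precursors on which the results turn follow, so that the members can be compared by seed, which is in capitals (RefSeq, GRCh38.p14, 5′ to 3′).
hsa-miR-221-3p: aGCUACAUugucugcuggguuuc
hsa-miR-222-3p: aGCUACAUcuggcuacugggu
hsa-miR-663a: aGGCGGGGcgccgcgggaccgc
hsa-miR-663b: gGUGGCCCggccgugccugagg
hsa-miR-874-3p: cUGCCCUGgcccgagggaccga
hsa-miR-1244: aAGUAGUUgguuuguaugagaugguu
hsa-miR-671-5p: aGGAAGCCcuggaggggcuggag
hsa-miR-671-3p: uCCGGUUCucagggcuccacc
hsa-miR-1306-5p: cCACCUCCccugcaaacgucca
hsa-miR-1306-3p: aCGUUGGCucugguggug
Of these, miR-221-3p and miR-222-3p, encoded next to each other on chromosome X, have the same seed. The mature miRNAs of mir-663 (chromosome 20) and mir-663b (chromosome 2) have different seeds despite their names. The genes of miR-874 and of 1 miR-1244 copy are on chromosome 5, miR-671 is on chromosome 7 and miR-1306 on chromosome 22.

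Few precursors passed the test between 6 days and the early normoxia libraries. By limma with 6 group means and Benjamini-Hochberg adjustment over the 166, 2 precursors were higher at 6 days, mir-221 and mir-663, and 5 were lower, mir-886, mir-1244-2, mir-1244-3, mir-671 and mir-1306. These 7 make 4.22% of those tested, and 28 had an unadjusted p under 0.05, of which 12 were higher and 16 lower. The median log2 fold change of the 166 was -0.02 and the values ran between -1.90 and 2.27, with 14 precursors at least 2-fold higher and 17 at least 2-fold lower. The 6 day and early libraries did not overlap for 38 of 166 precursors (22.9%), 16 of them higher (9.64%) and 22 lower (13.3%). Without the members that reached the minimum only through 1 of these groups, 13 of 145 were higher and 18 lower with no overlap. By the same test on the gene table, 62.9% of 11933 genes passed, 3747 higher and 3754 lower. Most tested precursors had fewer than 10 reads in a library, so this share and the 4.22% of precursors are not comparable. Of the 166 precursors, 42 also had fewer than 2 normoxia libraries at 1 RPKM.

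**Figure D1:**
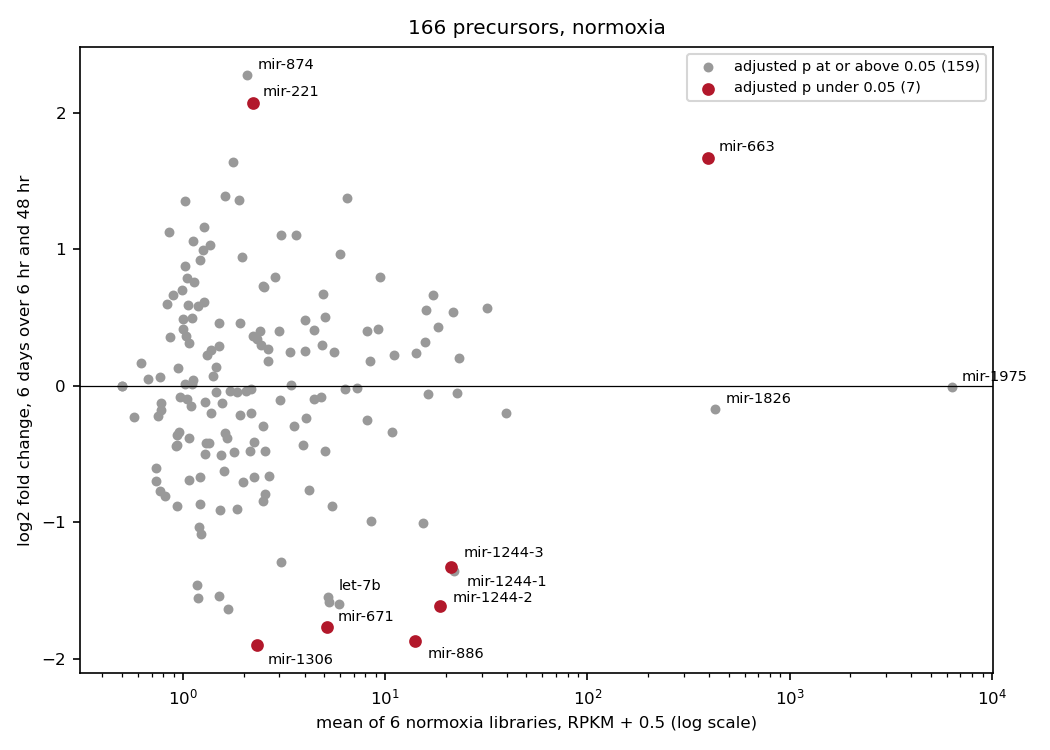
Log2 fold change of each of the 166 precursors (6 days over the 6 hr and 48 hr libraries, normoxia, log2(RPKM + 0.5)) against its mean RPKM over the 6 normoxia libraries plus 0.5 on a log axis. The 7 precursors past the threshold are in red, and mir-663 is the only one of them with a mean above 100 RPKM, while mir-1975 and mir-1826, the other 2 at that level, lie near 0.

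The 7 calls were made with a spread shared by all 12 libraries, and they depended on the libraries in the fit. None of the 7 passed when the 6 normoxia libraries were fitted alone, and none passed when library 1, 3, 4, 9 or 10 was left out, while without library 6 only mir-886 passed. Without library 2 mir-221 and mir-1306 no longer passed, without library 5 mir-671 and mir-1306, and without library 8 or 12 mir-1306. The values of each library are therefore given before each test result.

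The mir-221 and mir-222 hairpins are cut from neighbouring sites, and their mature forms are known for repressing the cell cycle inhibitor CDKN1B. The level of mir-221 was 3.35 and 4.50 RPKM at 6 days, against 0.351 and 0.348 RPKM at 6 hr and 1.34 and 0.393 RPKM at 48 hr. Both 6 day libraries lay above all 4 early ones, of which library 5 was the highest. These values stand on few reads, 11 and 15 at 6 days against 2, 1, 6 and 2 in the early libraries. On the log2(RPKM + 0.5) scale mir-221 rose by 2.07 ± 0.48 (SE), a fold of 4.21, with an adjusted p of 0.0343. A count-based fit (limma voom) on the inferred reads gave 2.69 ± 0.60 and an adjusted p of 0.0122, and a pseudocount of 1 gave 1.65.

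Its neighbour mir-222 was at 1.22 and 1.80 RPKM at 6 days, against 1.93, 1.04, 1.56 and 1.77 RPKM in the early libraries, so its groups overlapped. Its log2 fold change was -0.04 ± 0.43 with an adjusted p of 0.992. The difference between the changes of the neighbours, 2.11 on the log2 scale, was the widest of the 20 clusters (tested precursors within 10 kb of each other), whose median spread was 1.01. No test of that difference between precursors was run.

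The entry mir-663 was among the 3 most abundant precursors, and it is on the list below of entries that overlap other structured RNAs or repeats. It was at 877 and 564 RPKM at 6 days, against 147 and 207 RPKM at 6 hr and 340 and 230 RPKM at 48 hr. The groups did not overlap. In RPKM the 6 day libraries differed between themselves by more than the early ones did, while on the log2 scale they differed by less. The level rose 3.18-fold (log2 1.67 ± 0.35, adjusted p 0.0272), with a mean of 720 ± 221 RPKM at 6 days (SD, n = 2) and 231 ± 80.8 RPKM early (SD, n = 4). After quantile normalization its log2 fold change was 0.65 and it no longer passed (adjusted p 0.197).

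The related name mir-663b, chosen here after its values were seen, was at 14.6 and 6.61 RPKM at 6 days, against 2.68, 3.99, 5.98 and 2.26 RPKM in the early libraries. Its 6 day libraries were also both above the early ones, but its log2 fold change of 1.37 ± 0.51 had an adjusted p of 0.163. It lies within ANKRD30BL on the same strand. In the gene table ANKRD30BL was at 228 and 178 RPKM at 6 days, against 45.9, 83.9, 68.8 and 68.3 RPKM early, and rose by 1.62 ± 0.21 on the log2 scale (adjusted p 4.3e-05).

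A further precursor, mir-874, lay just outside the threshold and is also named after its values were seen. It was at 3.01 and 4.66 RPKM at 6 days, against 0.495, 0.981, 0.315 and 0 RPKM early, with no overlap. Its log2 fold change of 2.27 ± 0.60 was the highest of the 166, with an adjusted p of 0.0515 in the main test and 0.0165 by voom. With pseudocounts of 0.1 and 1 the log2 fold change was 3.25 and 1.76. KLHL3, the gene that holds it, had a log2 fold change of 0.26 ± 0.10 (adjusted p 0.0375).

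Of the 5 precursors that fell, mir-886 had the smallest p. RefSeq lists mir-886 as an older name of VTRNA2-1, so the entry is not a miRNA hairpin by current annotation. VTRNA2-1, a vault RNA by its symbol, is made by RNA polymerase III and known as an inhibitor of the kinase PKR. The entry mir-886 was at 4.43 and 4.37 RPKM at 6 days, against 21.0 and 11.1 RPKM at 6 hr and 24.5 and 16.1 RPKM at 48 hr. The 6 day libraries were nearly equal and below every early one. The reads were 16 and 16 at 6 days, against 132, 35, 121 and 90 in the early libraries. The level was 3.66-fold lower (log2 -1.87 ± 0.35, adjusted p 0.0272), with means of 4.40 ± 0.0469 RPKM at 6 days (SD, n = 2) and 18.2 ± 5.88 RPKM early (SD, n = 4). The gene table holds the same RNA under VTRNA2-1, at 5.03 and 3.96 RPKM against 18.8, 9.19, 27 and 16.9 RPKM.

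The vault RNAs VTRNA1-1, VTRNA1-2 and VTRNA1-3 were looked up after this result was seen, in the gene table, where 31.5% of genes were called lower. VTRNA1-2 was at 202 and 140 RPKM at 6 days and 315, 269, 526 and 383 RPKM early, a log2 fold change of -1.10 with an adjusted p of 0.000968. VTRNA1-3 was at 341 and 324 RPKM at 6 days and 822, 559, 937 and 605 RPKM early (-1.10, adjusted p 0.000581). In both, the 6 day libraries lay below all early ones. VTRNA1-1 was at 477 and 276 RPKM at 6 days and 399, 336, 1241 and 955 RPKM early, which overlapped, with a log2 fold change of -0.80 and an adjusted p of 0.0455. The protein genes of the vault particle were not lower: MVP, the major vault protein, had a log2 fold change of 0.37 (adjusted p 0.00852), TEP1 0.67 (adjusted p 4.35e-05) and PARP4 0.11 (adjusted p 0.320).

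The 3 mir-1244 precursors have identical hairpins in RefSeq, 85 bases with 0 differences between any pair, on chromosomes 2, 5 and 12, so reads cannot be assigned to 1 copy and their rows are uncertain as separate members. The row mir-1244-2 was at 5.52 and 8.55 RPKM at 6 days, against 22.5, 11.3, 31.2 and 30.0 RPKM early. The row mir-1244-3 was at 11 and 8.55 RPKM at 6 days, against 24.1, 16.2, 31.8 and 32.3 RPKM early. The row mir-1244-1 was at 11.8 and 7.77 RPKM at 6 days, against 27, 13.1, 35.8 and 32.8 RPKM early. In all 3 rows the 6 day libraries lay below every early one, and library 2 was the lowest of the early ones.

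The log2 fold changes of the 3 rows were -1.61 ± 0.34 (adjusted p 0.0272), -1.33 ± 0.29 (adjusted p 0.0273) and -1.36 ± 0.37 (adjusted p 0.0586). Summed to 1 feature, an alternative added after the data were seen, mir-1244 fell by 1.44 ± 0.31 (adjusted p 0.0319), and 6 of 164 features then passed. The copy on chromosome 2 lies within PTMA, the gene of prothymosin alpha, an abundant nuclear protein of growing cells. PTMA was at 128 and 135 RPKM at 6 days, against 268, 283, 274 and 312 RPKM early, a log2 fold change of -1.11 ± 0.10 (adjusted p 3.27e-06).

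The hairpin mir-671 lies in CHPF2, a gene of chondroitin synthesis, and its mature form is known for cutting the circular RNA CDR1as. It was at 1.14 and 1.68 RPKM at 6 days, against 7.03, 3.57, 9.36 and 5.13 RPKM early, from 4 and 6 reads against 43, 11, 45 and 28. Its groups did not overlap, and it was 3.40-fold lower (log2 -1.77 ± 0.43, adjusted p 0.0381). CHPF2 was at 2.31 and 2.70 RPKM at 6 days, against 6.56, 5.75, 6.01 and 6.21 RPKM early, and fell by 1.14 ± 0.09 on the log2 scale (adjusted p 1.07e-06). Precursor and gene moved in the same direction. Both values come from the same libraries, and the precursor's RPKM does not separate the hairpin from the host mRNA.

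The hairpin mir-1306 lies in DGCR8, whose protein is the RNA-binding partner of Drosha and whose mRNA is itself cut by that complex. It was at 0 and 0.777 RPKM at 6 days, against 2.50, 3.60, 2.31 and 1.78 RPKM early, which is 0 and 2 reads against 11, 8, 8 and 7. The log2 fold change was -1.90 ± 0.47 (adjusted p 0.0384). DGCR8 was at 3.39 and 2.90 RPKM at 6 days, against 6.58, 6.02, 7.69 and 7.21 RPKM early, and fell by 1.016 ± 0.09 (adjusted p 2.47e-06). By voom neither mir-671 (adjusted p 0.0617) nor mir-1306 (adjusted p 0.0884) passed, and with a pseudocount of 0.1 in place of 0.5 mir-221, mir-671 and mir-1306 did not pass. The log2 fold change of mir-1306 was then -3.12, and without library 9 it was -1.22.

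**Figure D2:**
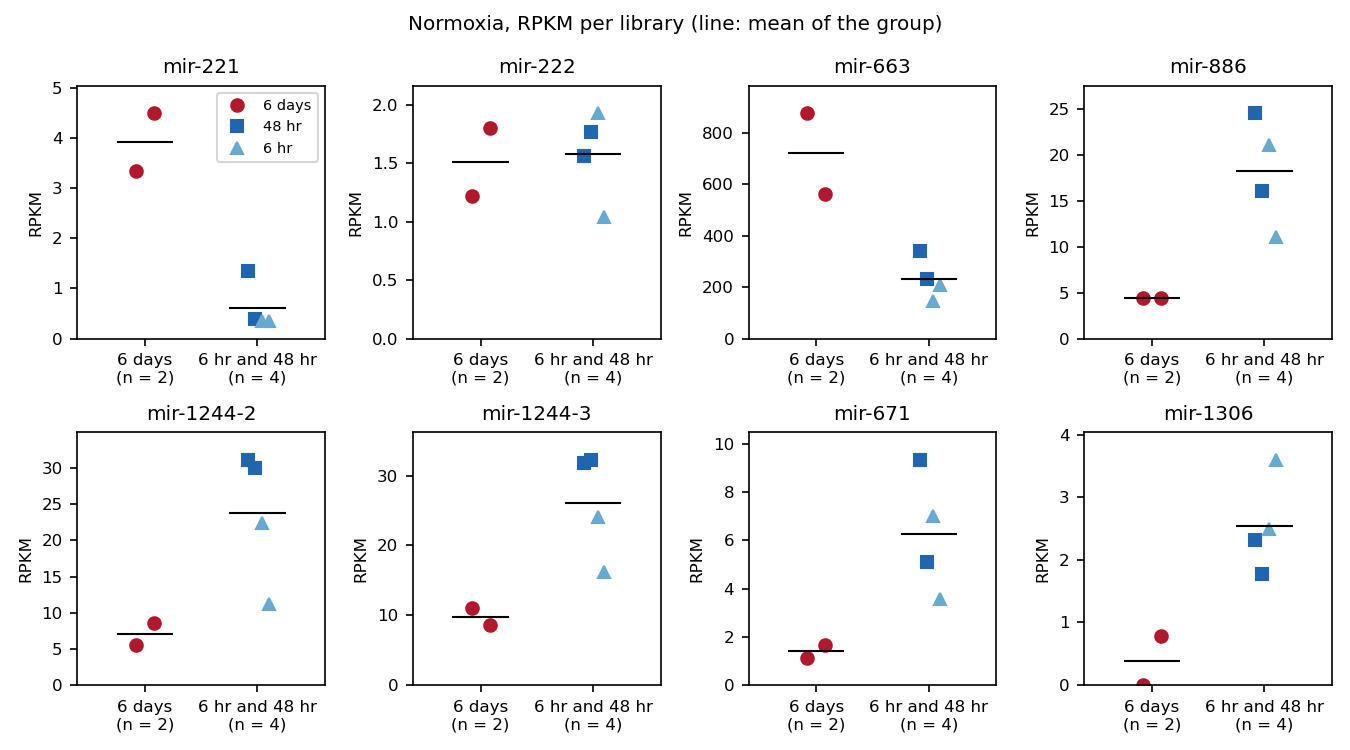
RPKM of each normoxia library for the 7 precursors past the threshold and for mir-222, with the 6 day libraries on the left and the 48 hr and 6 hr libraries on the right (lines, means). The 6 day libraries lie outside the range of the early ones in all panels but that of mir-222, at 3.35 and 4.50 RPKM for mir-221 and at 4.43 and 4.37 RPKM for mir-886.

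Hairpins inside other genes were followed in both tables. Of the 166 precursors, 151 have a row of their own in the gene table under a current or older name. Summed over the 12 libraries, that row came to between 90 and 110% of the precursor row for 129 and to under 10% for 13. All 13 lie within another gene on the same strand, including mir-671 in CHPF2, mir-1306 in DGCR8, mir-198 in FSTL1, mir-1181 in CDC37, mir-1182 in FAM89A, mir-675 in H19 and mir-18a, mir-19b-1 and mir-20a in MIR17HG. For these 13 the gene table credits little or nothing to the hairpin's own row, although the precursor table counts reads there. How the authors' gene table divided reads between overlapping genes is not given in the sources used here.

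For the 85 precursors whose holding gene was tested, the log2 fold changes of precursor and holding gene (71 different genes) had a Pearson r of 0.45 and a Spearman rho of 0.41 across precursors. For the 13 with the small own row, r was 0.87 and rho 0.76, and 11 of 13 had the same direction in both. Without mir-198, which reached the minimum level only through the 6 day libraries, r was 0.74 and rho 0.69, with 10 of 12 in the same direction. For the 60 whose own row was at least 90% of the precursor row, r was 0.35 and rho 0.33, with 40 of 60 in the same direction. These are descriptions across precursors, which are not independent: several share a holding gene, and both tables come from the same libraries. A precursor's RPKM also does not separate the hairpin from the RNA of its holding gene. The holding gene passed the test for 64 of the 85 precursors (75.3%; 29 higher, 35 lower), beside 62.9% of all genes, and 2 of the 85 precursors passed (2.35%), beside 4.22% of all precursors.

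Among the 13, mir-198 reached 1 RPKM in libraries 9, 10 and 1 only, so it was tested through the group in which it is high. It was at 2.70 and 2.13 RPKM at 6 days, against 2.18, 0.617, 0 and 0 RPKM early. Its groups overlapped, and its log2 fold change of 1.64 ± 0.52 had an adjusted p of 0.114. FSTL1, a secreted glycoprotein whose mRNA carries mir-198, was at 8.17 and 8.81 RPKM at 6 days, against 3.07, 2.37, 2.59 and 2.68 RPKM early, and rose 2.84-fold (adjusted p 4.96e-07). The hairpin mir-675 was at 0.459 and 1.36 RPKM at 6 days, against 1.32, 6.29, 0.672 and 1.78 RPKM early, with library 2 far above the rest. Its log2 fold change was -0.84 ± 0.56 (adjusted p 0.546), and that of the long RNA H19 that contains it was -0.76 ± 0.11 (adjusted p 0.000116).

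**Figure D3:**
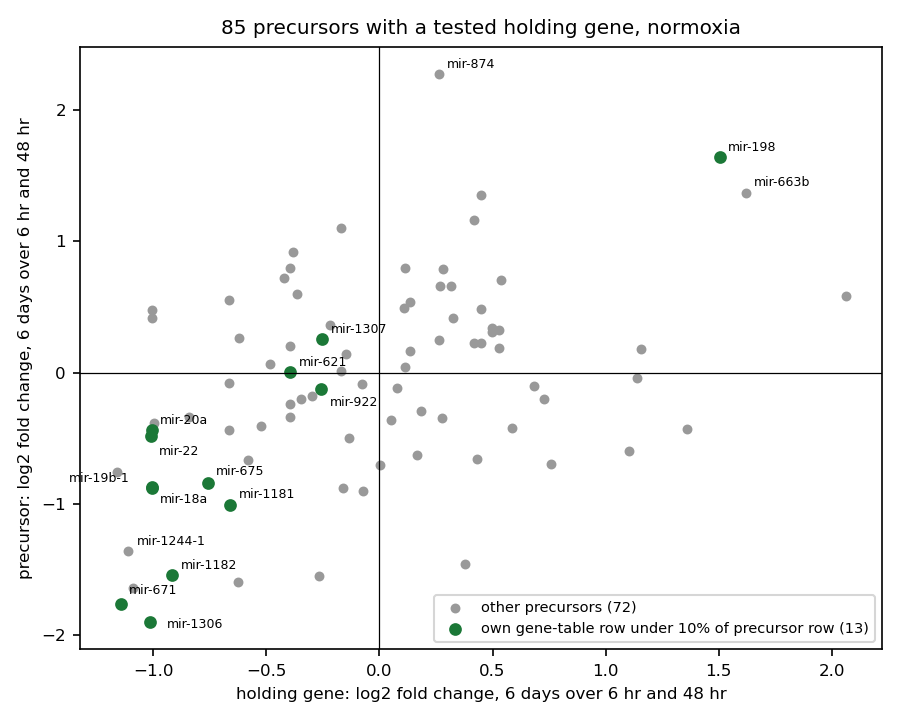
Log2 fold change (6 days over the 6 hr and 48 hr libraries, normoxia) of 85 precursors against that of the gene that holds each on the same strand. The 13 precursors whose own gene-table row is under 10% of the precursor row are in green, with 11 of them in the same direction as the holding gene (10 of 12 without mir-198), and mir-671 and mir-1306 lie at the lower left.

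The mir-17/92 cluster, a growth-promoting group of hairpins in 1 transcript, had a host that fell while none of its hairpins passed. MIR17HG, its host transcript, was at 1.56 and 1.39 RPKM at 6 days, against 4.01, 3.21, 3.67 and 3.04 RPKM early, and fell by 1.01 ± 0.11 (adjusted p 1.04e-05). The hairpin mir-17 was at 3.59 and 4.32 RPKM at 6 days, against 3.90, 2.28, 6.14 and 0.772 RPKM early, and mir-92a-1 was at 14.2 and 7.20 RPKM, against 8.41, 7.85, 10.4 and 4.43 RPKM. Both overlapped between groups, with log2 fold changes of 0.48 ± 0.58 and 0.42 ± 0.46 (adjusted p 0.800 and 0.789). The other 3 tested hairpins of the cluster had between 0 and 7 reads in each normoxia library, and none passed the threshold. Their log2 fold changes were -0.87 ± 0.74 for mir-18a, -0.88 ± 0.81 for mir-19b-1 and -0.44 ± 0.53 for mir-20a. Whether the hairpins differed from the host in their change was not tested.

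The paralogous cluster in MCM7, a helicase gene of DNA replication, also had a host that fell, with no hairpin past the threshold. The hairpin mir-93 was at 19.3 and 19 RPKM at 6 days, against 14.5, 16.7, 15.3 and 7.29 RPKM early, so the 6 day libraries were the highest, but the change of 0.56 ± 0.36 had an adjusted p of 0.537. Its neighbour mir-106b was at 2.86 and 2.42 RPKM at 6 days, against 4.47, 2.80, 4.49 and 3.43 RPKM early (-0.44 ± 0.47, adjusted p 0.789). MCM7 fell by 0.67 ± 0.11 on the log2 scale (adjusted p 0.000276).

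The most abundant entries were mostly not classical hairpins. The entry mir-1975, a fragment of a Y RNA by later annotation, was at 7232 and 5094 RPKM at 6 days, against 7029, 5204, 9284 and 4139 RPKM early, and mir-1826, a fragment of ribosomal RNA by later annotation, was at 479 and 223 RPKM, against 379, 127, 945 and 403 RPKM. Neither separated the groups, with log2 fold changes of -0.01 ± 0.46 and -0.17 ± 0.65. The hairpin mir-1248 shares its place with the small nucleolar RNA SNORA81 and was at 39.2 and 30.7 RPKM at 6 days, against 57.4, 34.1, 42.2 and 31.0 RPKM early (-0.20 ± 0.30). RefSeq lists mir-1259 as an older name of SNORD12, a small nucleolar RNA. It was at 12.1 and 33.3 RPKM at 6 days, against 12.9, 21.4, 28.5 and 24.2 RPKM early (-0.06 ± 0.49).

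The highest of the classical hairpins was mir-125a, at 37.4 and 41.5 RPKM at 6 days, against 21.3, 37.4, 32 and 18.8 RPKM early (0.57 ± 0.32, adjusted p 0.438). Its 6 day libraries lay just above the early ones. The hairpin mir-23b was at 19.7 and 28.6 RPKM at 6 days, against 21.5, 35.5, 18.7 and 12.5 RPKM early (0.20 ± 0.32), and mir-103-1, within PANK3, was at 26.6 and 24.6 RPKM, against 15.3, 28.0, 23.3 and 9.14 RPKM (0.54 ± 0.39). Both overlapped, and neither passed.

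Further well-known precursors did not pass either. The oncogenic mir-21 was at 6.05 and 4.59 RPKM at 6 days, against 5.36, 7.44, 5.45 and 1.5 RPKM early (0.25 ± 0.47, adjusted p 0.850). The hypoxia-induced mir-210 was at 0 and 0.600 RPKM at 6 days, against 0.351, 0.696, 0 and 0 RPKM early, at most 2 reads in any normoxia library. The p53 target mir-34a was at 0.914 and 0.300 RPKM at 6 days, against 1.05, 0.348, 0.223 and 0.786 RPKM early (0.02 ± 0.48). The hairpin mir-22 was at 0 and 1.94 RPKM at 6 days, against 2.72, 0, 2.31 and 0.763 RPKM early. In these 4 the groups overlapped.

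The let-7 family, whose mature forms restrain growth and mark differentiated cells, had 10 tested members of 12 in the table, and none passed. Its median log2 fold change was -0.28, beside -0.02 for all 166, with values between -1.55 and 0.50. The lowest was let-7b, named after its values were seen, at 1.62 and 1.59 RPKM at 6 days, against 8.37, 3.69, 10.1 and 3.12 RPKM early. It did not overlap between groups but had an adjusted p of 0.115. Its cluster neighbour let-7a-3 was at 4.53 and 7.14 RPKM at 6 days, against 3.39, 3.10, 4.31 and 4.96 RPKM early. Those groups overlapped, and the change of let-7a-3 was 0.50 ± 0.32. The index members let-7a-1 (16.8 and 12.4 RPKM at 6 days, against 11.1, 20.6, 15.0 and 6.21 RPKM early) and let-7i (2.39 and 0.393 RPKM, against 2.53, 2.73, 2.92 and 1.29 RPKM) had adjusted p of 0.845 and 0.647.

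The 14 lists of miRNAs were written from general knowledge, but with earlier results of these data known. Of these lists, 12 had a tested member, and 3 of their 72 tested members passed: mir-221, mir-663 and mir-886. That is 4.17%, near the 4.22% of all tested precursors. The mir-17/92 cluster with its paralogs (10 tested of 15) had a median log2 fold change of -0.26, the mir-15/16 family (4 of 8) of -0.06, the mir-23/27/24 clusters (6 of 6) of -0.02, and the mir-29 and mir-30 families (8 of 10) of 0.07, with no member past the threshold in any of them. The clusters of mir-99, mir-100 and mir-125 (3 of 6) had a median of 0.57 and the HOX cluster miRNAs (4 of 6) of -0.28, again with none past it. Of the p53-induced list 1 of 9 members was tested. The mir-200 and epithelial list (4 tested of 10) had a median log2 fold change of 0.36, with none past the threshold. Its members mir-200c and mir-141 had changes of 0.41 ± 0.34 and 1.03 ± 0.71, and their groups overlapped. The lowest member, mir-182, named after its values were seen, was at 0.610 and 1.5 RPKM at 6 days, against 4.73, 3.13, 3.57 and 1.77 RPKM early. The 6 day libraries of mir-182 lay below all early ones (-1.29 ± 0.41, adjusted p 0.114). Its cluster neighbour mir-183 was at 1.52 and 3.00 RPKM at 6 days, against 1.93, 2.78, 1.34 and 0.982 RPKM early (0.30 ± 0.40).

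The mirtrons, hairpins released by splicing, had 7 tested members of 15, none past the threshold, with a median of -0.63. Entries listed as overlapping other structured RNAs or repeats had 13 tested members of 18, with mir-663 higher, mir-886 lower and a median of -0.17. The entry mir-1259 was not on that list. No member of the mir-302 and mir-371 list of pluripotent cells (8 in the table) or of the imprinted cluster at 14q32 (49 in the table) reached the minimum level.

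**Figure D4:**
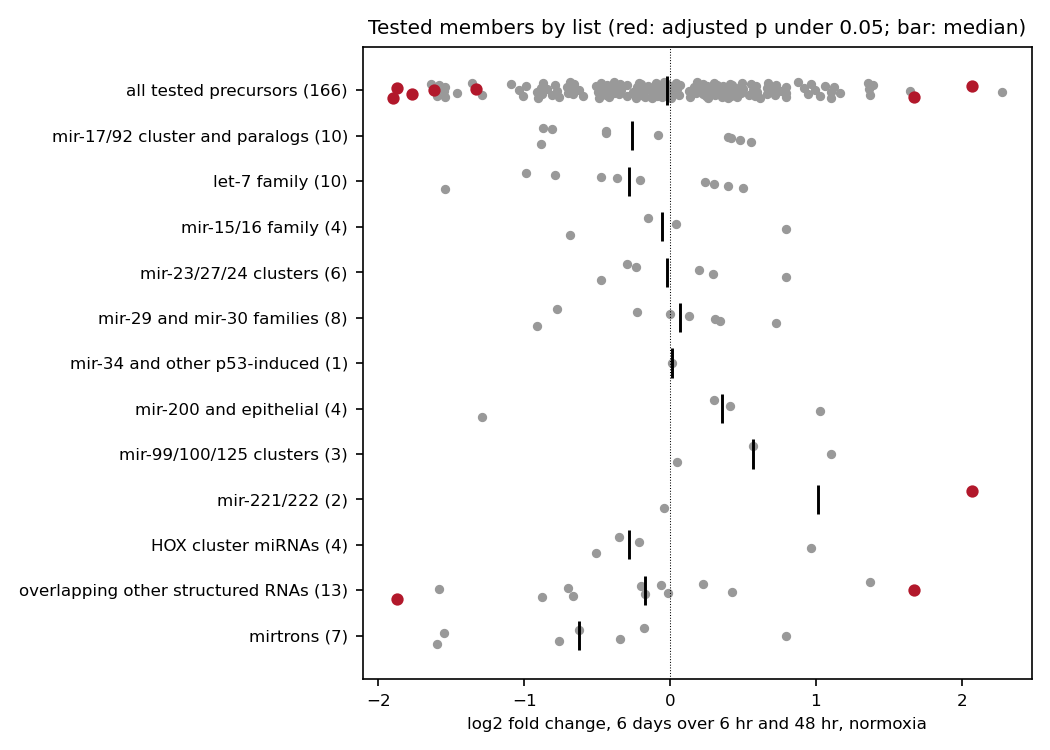
Log2 fold change (6 days over the 6 hr and 48 hr libraries, normoxia) of the tested members of each list and of all 166 precursors, with a bar at each median and the number tested in brackets. The list medians run between -0.63 for the mirtrons and 1.016 for mir-221 and mir-222, and red points mark the members past the threshold.

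The early libraries were then taken by time. Against the 48 hr libraries alone 7 precursors passed (4.22%), 2 higher and 5 lower, of which 4 were also among the 7 above (mir-886, mir-1244-2, mir-1244-3 and mir-671), while the others were mir-1244-1, mir-874 and mir-198, the last of which was tested only because of its level in the 6 day libraries. The count was 0 when library 5, 6, 9 or 10 was left out, and 3 without library 3 or 4. Against the 6 hr libraries alone 0 passed (0%), with 22 at an unadjusted p under 0.05, and voom gave 1. Between 48 hr and 6 hr in normoxia 0 passed, with 13 at an unadjusted p under 0.05, and voom gave 0.

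The same contrast in hypoxia compares other libraries, although its test shares the spread estimated over all 12. There 48 of 166 precursors passed (28.9%), 42 higher (25.3%) and 6 lower (3.61%), with a median log2 fold change of 0.67 over the 166, and quantile normalization reduced this to 3 higher and 7 lower. Without library 11 the count was 1 and without library 12 it was 12. Of the 7 normoxia calls, 6 had the same sign in hypoxia and 3 passed there: mir-886, mir-1244-2 and mir-1244-3. The hairpins of mir-1244-2 and mir-1244-3 are identical, so these are not separate results. In the gene table, early hypoxia library 4 had the erythroid marker HBB at 20.2 RPKM and COL1A2 at 3.06 RPKM. In the other early hypoxia libraries they were at 0.0417 to 0.549 and 0.0434 to 0.0784 RPKM. EPCAM was at 40.1 RPKM in library 4 and 38.1 to 42.2 RPKM in the others. The part of these markers in the hypoxia results was not tested.

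In hypoxia mir-886 was at 1.74 and 2.63 RPKM at 6 days, against 19.4, 13.9, 21.8 and 19.6 RPKM early (log2 -2.84 ± 0.35, adjusted p 0.000565), and it passed in all 20 alternatives run on that contrast. In both oxygen conditions the 6 day libraries of mir-886 lay below all early ones. In hypoxia mir-221 was at 4.66 and 1.81 RPKM at 6 days, against 0.711, 1.02, 0.781 and 1.03 RPKM early (1.32 ± 0.48, adjusted p 0.0562). The exception in sign was mir-663, at 453 and 313 RPKM at 6 days in hypoxia, against 355, 384, 370 and 623 RPKM early, which overlapped (-0.16 ± 0.35, adjusted p 0.764).

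The test of the normoxia change minus the hypoxia change called 0 precursors, with 36 at an unadjusted p under 0.05 and a lowest adjusted p of 0.156, and voom called 1. For mir-663 the difference was 1.83 ± 0.50 (adjusted p 0.156), for mir-182 it was -2.28 ± 0.59 (adjusted p 0.156) and for mir-34a -2.45 ± 0.68 (adjusted p 0.156). The hypoxia values of mir-182 were 7.94 and 9.40 RPKM at 6 days, against 2.85, 4.6, 4.95 and 4.37 RPKM early, so its 6 day libraries were the lowest in normoxia and the highest in hypoxia. Across the 166 precursors the 2 changes had a Pearson r of 0.47 and a Spearman rho of 0.44, as a description.

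**Figure D5:**
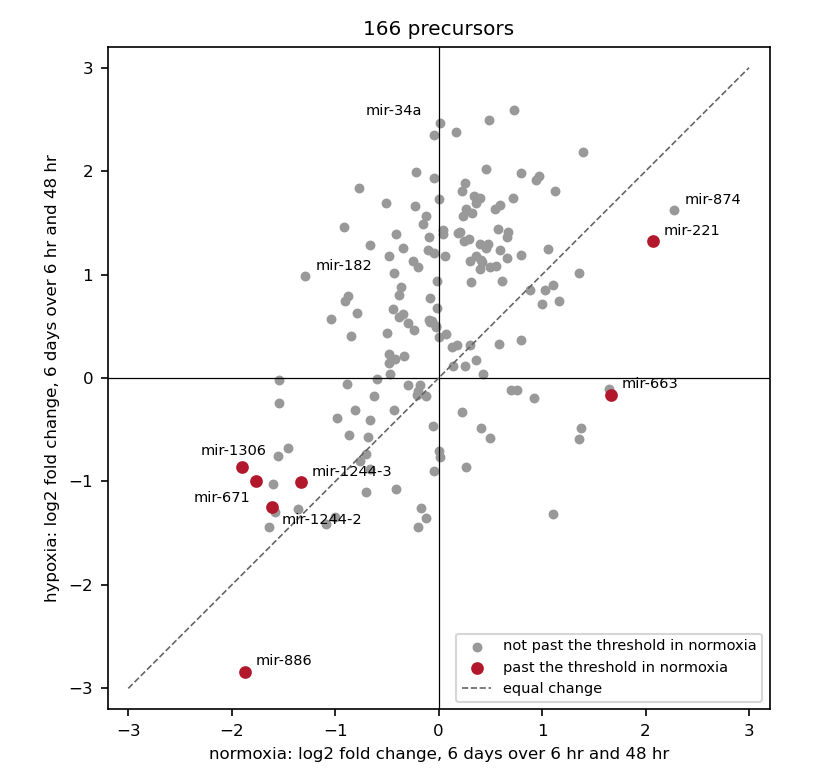
Log2 fold change of each of 166 precursors at 6 days over 6 hr and 48 hr, in hypoxia (vertical) against normoxia (horizontal), with the dashed line of equal change. The 7 normoxia calls are in red, mir-886 is at the lower left (-1.87 and -2.84), and most grey points lie above 0 on the hypoxia axis, where the median is 0.67.

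Genes of miRNA processing were looked up in the gene table from a list written after the precursor results were seen, and 14 of the 16 found were tested. Of these 9 were lower and 2 higher at 6 days, with a median log2 fold change of -0.52, beside 31.5% of all genes called lower and 31.4% higher. DROSHA, the nuclear nuclease, was at 6.99 and 7.49 RPKM at 6 days, against 12.9, 11.7, 11.8 and 12.9 RPKM early (-0.73, adjusted p 2.18e-05). DICER1, which removes the loop, was at 8.09 and 8.10 RPKM at 6 days, against 13.6, 13.4, 15.2 and 16.3 RPKM early (-0.81, adjusted p 2.11e-06). In both, as in DGCR8 above, the groups did not overlap. EIF2C4, an Argonaute gene, was at 2.87 and 2.78 RPKM at 6 days, against 0.705, 0.922, 0.928 and 1.20 RPKM early (1.22, adjusted p 2.0e-06), while EIF2C2, the Argonaute that cuts targets, had a log2 fold change of -0.55 (adjusted p 0.000575). LIN28B, which blocks let-7 processing, had -0.61 (adjusted p 0.000121). Whether these changes bear on the precursor levels was not tested.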

How the data were processed

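RNA of 12 A2780 libraries was analysed from 2 tables of RPKM deposited by the authors, 1 for 939 precursor miRNAs and 1 for 22446 gene symbols. The submitters' processing notes list Partek 6.6 and hg19 without roles; no source used here names the aligner, the annotation or the read total behind RPKM. No further normalization was applied. Library totals and reads were inferred from the RPKM steps and precursor lengths: 96.3 to 98.9% of values up to 20 reads came within 0.05 of a whole number. Reads were used for depth and for voom only. PCR copies are not independent molecules.

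Features reaching 1 RPKM in 2 or more of the 12 libraries entered limma 3.58.1 (R 4.3.3) on log2(RPKM + 0.5), which understates changes of low features, with 6 group means, an intensity trend, two-sided tests, Benjamini-Hochberg adjustment within each table and a threshold of 0.05. The contrast was 6 days minus the mean of 6 hr and 48 hr. The scripts were tested on simulated data. Named precursors were the calls whose libraries did not overlap and whose higher group averaged 2 RPKM or more, the 10 most abundant in normoxia, index precursors and called list members. Members, lists and index names were chosen with earlier results of these data known. Of 939 precursors 918 matched RefSeq (GRCh38.p14, another build than hg19, so no gene coordinates are given), and 158 of the 166 tested. A holding gene is a RefSeq gene that contains the hairpin on the same strand. Alternatives changed the pseudocount, filter, scaling, trend, libraries and test. Figures were drawn with matplotlib 3.10.9. No library was left out.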

Additional observations from a re-analysis of the deposited data

Results flagged for a closer look

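In 64 groups of 4 early libraries (named precursors, each oxygen condition apart), 4 had 1 library far from the other 3, and chance flags about 1 in 20 such groups. In early normoxia mir-221 was at 1.34 RPKM in library 5, next to 0.393 RPKM in the nearest library; this is 6 reads, and mir-221 still passed without library 5. In early hypoxia mir-663 was at 623 RPKM in library 8 (nearest 384 RPKM), mir-23b at 17.1 RPKM in library 4 (nearest 21.6 RPKM), and mir-198 at 0 RPKM in library 3 (nearest 0.453 RPKM). For mir-198 this is 0 reads in library 3 against 1 read in each of libraries 4, 7 and 8. The rate of about 1 in 20 does not apply to reads as few as these. No precursor passed the test of a difference between the normoxia and the hypoxia change.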

How the results depend on the processing

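No paired analysis was possible because the groups share no replicate numbers. Against 2 precursors higher and 5 lower at 6 days in the main test, a pseudocount of 0.1 gave 1 and 3. None passed in either direction (0 and 0) with no filter on low values, with no intensity trend, or with the 6 normoxia libraries fitted alone, as 3 groups or with the 4 early ones as 1. A pseudocount of 1, a mean filter, quantile normalization, trimmed-mean centring, voom and the summed mir-1244 rows stayed within 1.5 times. Leaving out each library gave 0 to 3 higher and 0 to 5 lower. A left-out library leaves its group with 1, assumed to vary like the others. Against 48 hr (7 calls), a pseudocount of 0.1 gave 3, quantile normalization 11, and 0 passed with no filter, no trend or normoxia alone, with 0 to 7 over left-out libraries. Against 6 hr (0 calls), the mean filter gave 4, trimmed-mean centring 2, quantile normalization 1 and voom 1. Between 48 hr and 6 hr it stayed at 0. In hypoxia (48 calls) quantile normalization gave 10, and left-out libraries 1 to 52. The difference of changes (0 calls) gave 1 with trimmed-mean centring, 1 with voom and 0 to 1 over left-out libraries. The gene count (7501) ran between 6119 and 7765. For the 7 called precursors the direction held in all 154 alternatives, and 73 of these kept adjusted p under 0.05 while 81 did not. The adjusted p over alternatives ran up to 0.201 for mir-886, mir-1244-3 and mir-221, 0.254 for mir-1244-2 and mir-663, 0.259 for mir-671 and 0.363 for mir-1306. Where a count changed, the cause was not tested. Depth limits the low precursors: the median was 3 and 4 reads at 6 days, and 3 to 7 in the early libraries.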
